A study of Mus musculus with 6 samples.

Results

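Cxcl14, Cxcl12, Cxcr4 and Ackr3 are a set of 2 CXC chemokine ligands and 2 receptors, 4 of the 53801 genes counted in E12.5 mouse maxillary processes. They were matched by gene symbol, and all 4 had enough counts to be among the 17514 genes tested. The set was chosen by measured values, namely the difference between the genotypes in these same samples. Their values between genotypes are therefore given as a description, without a p-value. RNA was sequenced from 3 WT and 3 Wnt1cre; Rosa26Dlx2/- samples (Dlx2OE), all labelled strain C57BL/6 and embryonic day 12.5. In Dlx2OE, Cre driven by Wnt1 removes a stop cassette in cells of the neural crest lineage, so that a Flag-tagged Dlx2 coding sequence is transcribed from 1 Rosa26 allele under the CAG promoter. Epithelium, endothelium, blood and muscle of the process have another origin and are not targeted by this Cre. The tissue was a whole dissected prominence, and tissue came from littermates (7 per the labels, 6 per the methods), so that a sample may hold more than 1 embryo. The p-values below therefore measure the spread between these samples only.

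CXCL12 is a secreted guidance cue that steers neural crest cells, muscle precursors, endothelial cells and blood progenitors. It acts through CXCR4, a receptor that couples to inhibitory G proteins. ACKR3 is an atypical receptor that binds CXCL12, signals mainly through arrestins and takes the ligand up, which limits how much of it reaches CXCR4. CXCL14 is a conserved chemokine made by many epithelia and stromal cells, and its receptor is not firmly established.

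All 4 genes lie apart from other annotated exons in GENCODE M21 (GRCm38), so that 0% of their exon sequence is shared with another gene on either strand. Cxcl14 (ENSMUSG00000021508) spans 56288643 to 56296551 on the reverse strand of chromosome 13, and its main transcript has 4 coding exons and 297 coding bases. Cxcl12 (ENSMUSG00000061353) lies on chromosome 6, forward strand, from 117168535 to 117181367. Its coding transcripts have 267, 279 and 357 coding bases, and the counts per gene do not separate them. Cxcr4 (ENSMUSG00000045382) lies on the reverse strand of chromosome 1 from 128588199 to 128592293, with 2 coding exons. Ackr3 (ENSMUSG00000044337) lies on the forward strand of the same chromosome from 90203980 to 90216751, with 1 coding exon. The coding stretches that define each protein class are shown because they tell the members apart at sequence level. In the ligands the capitals mark the 2 cysteine codons of the CXC motif, which are separated by 1 codon. In the receptors they mark the codons of the DRY triplet at the end of the third transmembrane helix. The sequences are from the GENCODE M21 transcripts, from 8 codons before the motif.
Cxcl14 coding stretch: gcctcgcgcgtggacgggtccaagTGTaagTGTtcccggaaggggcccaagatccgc
Cxcl12 coding stretch: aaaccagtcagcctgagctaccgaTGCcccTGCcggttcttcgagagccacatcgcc
Cxcr4 coding stretch: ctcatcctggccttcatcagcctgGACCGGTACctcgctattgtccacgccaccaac
Ackr3 coding stretch: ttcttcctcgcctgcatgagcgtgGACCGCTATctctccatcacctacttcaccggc
The cysteine codons begin at base 73 of the coding sequence in Cxcl14 and at base 88 in Cxcl12. Both receptors carry the triplet, at base 403 in Cxcr4 and base 421 in Ackr3.

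Counts on genes were 30332754 to 31308813 in the WT samples and 26155500 to 30570784 in the Dlx2OE samples. Levels are CPM (counts scaled to a fixed library size with trimmed-mean factors, TMM). A count of 0 would allow up to 3 counts, which is 0.0955 to 0.111 CPM and covers counting error only. Dlx2, the gene placed in the transgene, had 42.9, 35.0 and 45.2 CPM in WT against 119, 131 and 123 CPM in Dlx2OE, higher in all 3 as labelled. Dlx2OE sample 3 stood apart, since 14.7% of its reads fell outside genes (5.03% to 7.82% in the other 5) and a single short non-coding gene, Gm23935, took 1.16% of its counts (at most 0.129% elsewhere). Dlx2OE sample 1 was separated from the other 5 samples on the second principal component, which held 23.3% of the variance of log2 CPM. The 10 markers of facial mesenchyme were detected in every sample, with summed levels of 1585 to 1956 CPM in WT against 1957 to 2463 CPM in Dlx2OE. Of these 10, Alx4 (1.39 log2 units, adjusted p = 0.0211) and Twist1 (0.65, adjusted p = 0.0402) rose and Meox2 (-1.67, adjusted p = 0.0360) fell in edgeR's test, so the sum is not a fixed reference. Over all genes tested, 6.45% passed an adjusted p under 0.05. With a sample left out, Alx4 and Meox2 passed in 3 and Twist1 in 1 of the 6 fits.

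Cxcl14 was the member with the largest difference between the genotypes. Its level was 34.4, 26.3 and 52.6 CPM in WT samples 1 to 3 and 1006, 435 and 513 CPM in Dlx2OE samples 1 to 3, from 792 to 29804 counts. Every Dlx2OE sample lay far above every WT sample, and Dlx2OE sample 1 was the highest. The means were 37.7 ± 13.5 CPM in WT against 651 ± 309.7 CPM in Dlx2OE (SD, n = 3 each). The fitted log2 fold change was 4.11 (standard error 0.40), a 17.25-fold higher level, and 99.9% of the genes tested had the same or a smaller value. When each sample was left out in turn, it stayed between 3.64 and 4.42, with the lowest value when Dlx2OE sample 1 was absent.

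Cxcl12 went the other way. It had 423, 319 and 385.5 CPM in WT against 182, 262 and 287 CPM in Dlx2OE. The genotypes did not overlap, but the lowest WT sample and the highest Dlx2OE sample were close. The means were 376 ± 52.9 and 244 ± 55.0 CPM (SD, n = 3 each), which is -0.63 log2 units (standard error 0.19) or a 1.54-fold lower level. Leaving out each sample gave -0.76 to -0.46.

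The receptors differed less between genotypes. Cxcr4 had 7.89, 20.2 and 16.3 CPM in WT against 29.2, 10.4 and 11.1 CPM in Dlx2OE. WT sample 1 was the lowest and Dlx2OE sample 1 the highest of the 6, and of the other 4 both WT samples lay above both Dlx2OE samples. The means were 14.8 ± 6.30 and 16.9 ± 10.6 CPM (SD, n = 3 each), 0.19 log2 units apart (standard error 0.46). The direction rested on single samples, because the value was -0.11 without WT sample 1, -0.47 without Dlx2OE sample 1 and 0.26 to 0.48 without any 1 of the other 4. Ackr3 had 91.05, 103.6 and 83.3 CPM in WT against 86.4, 61.65 and 60.85 CPM in Dlx2OE. Dlx2OE sample 1 lay within the WT range, whereas Dlx2OE samples 2 and 3 were below it. The means of Ackr3 were 92.7 ± 10.25 and 69.6 ± 14.5 CPM (SD, n = 3 each), a difference of -0.41 log2 units (standard error 0.16) and of -0.61 without Dlx2OE sample 1.

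**Figure D1:**
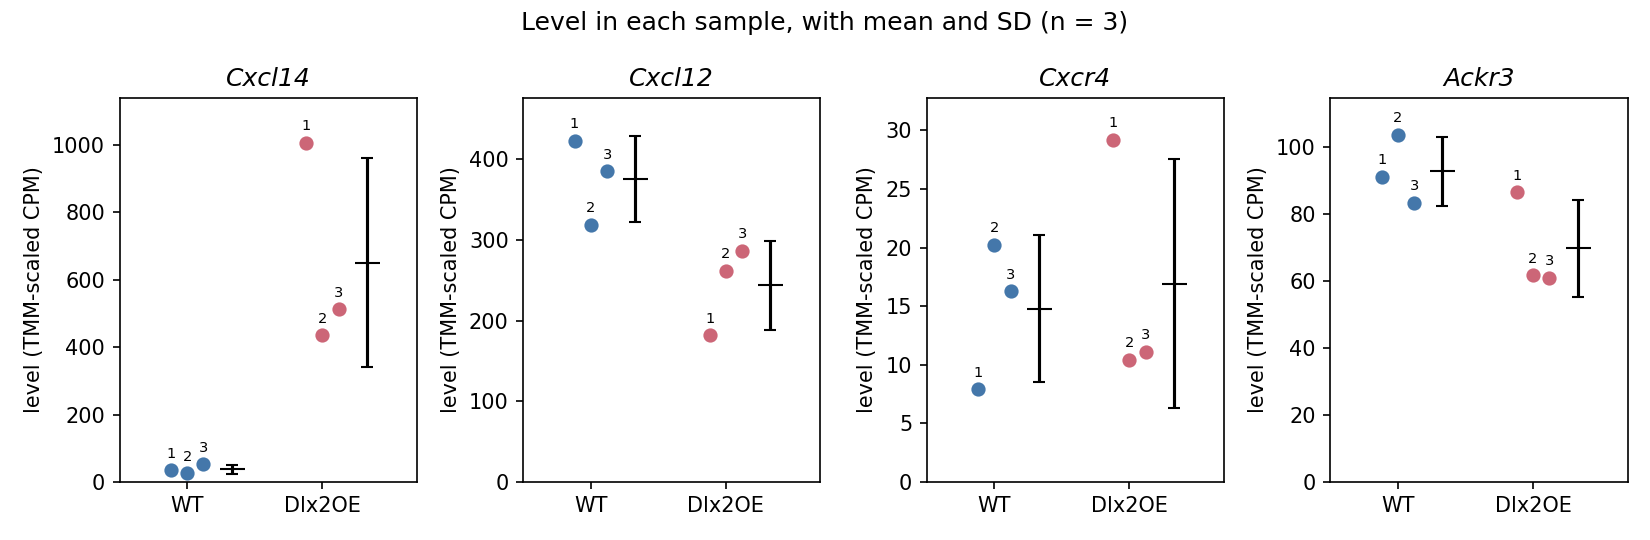
Level of Cxcl14, Cxcl12, Cxcr4 and Ackr3 as TMM-scaled CPM, with 1 point per sample (numbered by replicate) and the mean and SD over 3 samples in black. Cxcl14 lay at 26.3 to 52.6 CPM in WT and at 435 to 1006 CPM in Dlx2OE, whereas Cxcr4 and Ackr3 overlapped between the genotypes.

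Calls came from edgeR's quasi-likelihood test and needed an adjusted p below 0.05 together with more than 1 log2 unit between the genotypes. Of the 4 members, 1 was called, Cxcl14, where 3.12% of the 17514 genes tested were called (1.5% higher and 1.62% lower). The genotypes did not overlap for 2 members, Cxcl14 and Cxcl12, where 34.1% of all genes tested did not overlap. These shares are given for reference and nothing is read from them, since the members were selected on this contrast. The number of genes called depended on the samples. With 1 sample left out it was 39 to 642 higher and 35 to 531 lower, against 262 and 284 with all 6 samples.

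Levels of different genes were compared per length, as TPM (counts per base of merged exon, scaled to a fixed sum per sample). In WT the order was Cxcl12 with 139 ± 29.3, Ackr3 with 82.6 ± 3.65, Cxcl14 with 64.0 ± 30.9 and Cxcr4 with 24.6 ± 10.4 TPM (SD, n = 3 each). Cxcl12 exceeded Ackr3, and Cxcl14 exceeded Cxcr4, in all 3 WT samples. Ackr3 and Cxcl14 were not separated, since Ackr3 was higher in 2 of the 3. In Dlx2OE, Cxcl14 came first with 1141 ± 719.8 TPM, ahead of Cxcl12 with 90.25 ± 23.4, Ackr3 with 65.9 ± 26.6 and Cxcr4 with 30.5 ± 23.6 TPM (SD, n = 3 each). Here Cxcl12 and Ackr3 were not separated, as Cxcl12 was higher in 2 of the 3 samples. Gm23935 took 41.6% of all TPM in Dlx2OE sample 3, which lowered every other TPM value there. Over protein-coding genes alone, a setting added after the data were seen, the Dlx2OE means were 1393 ± 612 TPM for Cxcl14, 118 ± 31.3 for Cxcl12, 81.7 ± 14.1 for Ackr3 and 36.4 ± 21.5 for Cxcr4 (SD, n = 3 each), in the same order. The 21890 protein-coding genes were also ordered by mean TPM over all annotated genes, in which the lowered Dlx2OE sample 3 weighs less. In this order Cxcl14 was at position 2324 in WT and 72 in Dlx2OE. Cxcl12 was at 933 and 1556, Ackr3 at 1770 and 2287, and Cxcr4 at 5743 and 5046.

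The balance of the 2 ligands turned over. Cxcl14 had 0.364, 0.369 and 0.610 times the TPM of Cxcl12 in the WT samples and 24.8, 7.42 and 8.0 times in the Dlx2OE samples. In WT, Cxcl14 made up 14.5% to 26.5% of the summed TPM of 38 chemokine ligands, and Cxcl12 39.3% to 43.8%. In Dlx2OE, Cxcl14 made up 78.2% to 91.6% and Cxcl12 3.70% to 10.5%. Shares of a sum are tied, so the higher level of Cxcl14 lowered the share of Cxcl12, whose own level in CPM was 1.54-fold lower. The receptors changed less. Ackr3 held 64.2% to 74.8% of the summed TPM of 23 chemokine receptors in WT and 55.5% to 63.0% in Dlx2OE. Its share was lower in Dlx2OE without overlap but remained the largest. Cxcr4 held 12.01% to 23.6% in WT and 19.8% to 34.7% in Dlx2OE. Ackr3 had 2.77 to 6.23 times the TPM of Cxcr4 in WT and 1.60 to 3.19 times in Dlx2OE.

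**Figure D2:**
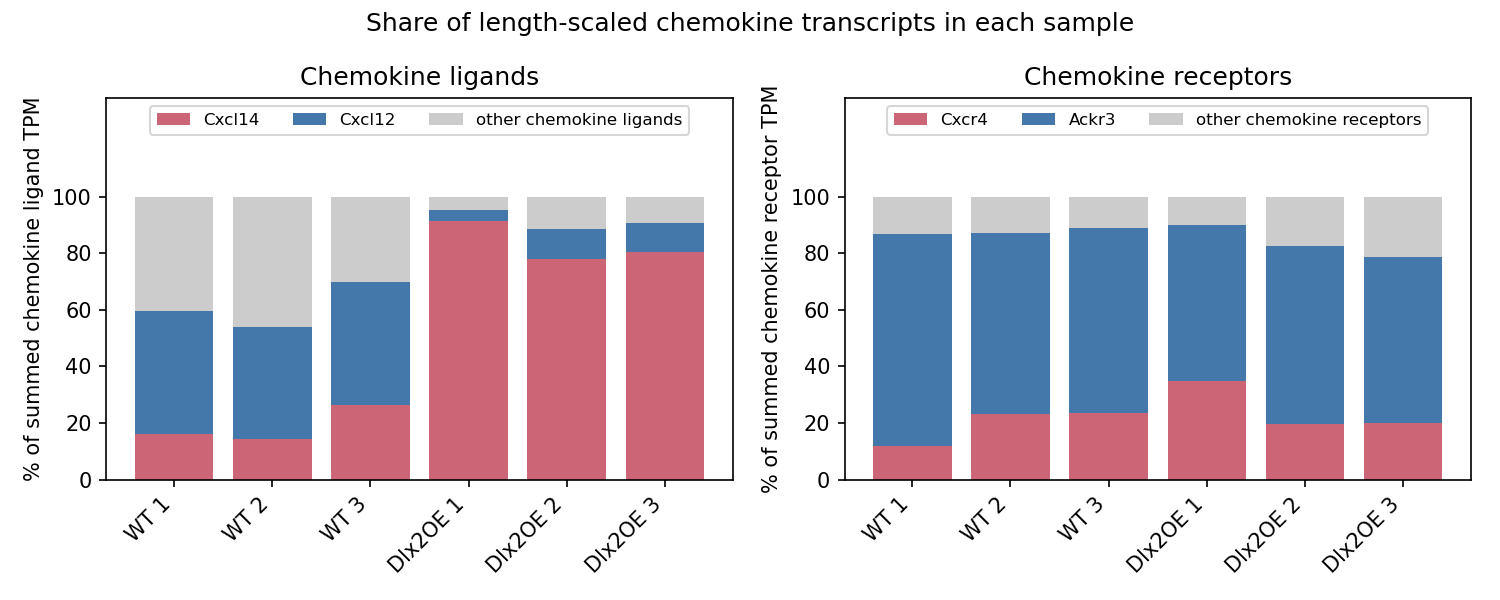
Percent of the summed TPM of chemokine ligands (left) and chemokine receptors (right) that each member took in each of the 6 samples, with the other family members in grey. Cxcl14 took at most 26.5% of the ligand sum in WT and at least 78.2% in Dlx2OE, while Ackr3 was the largest part of the receptor sum in all 6 samples.

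In bulk tissue, fewer cells of a type and less RNA per cell cannot be told apart, so marker levels are given beside the members. The 10 markers of surface epithelium summed to 725, 1319 and 988 CPM in WT against 1874, 584 and 606 CPM in Dlx2OE. Among them 4 had a higher level in Dlx2OE and 6 a lower one, and only Krt8 and Krt18, keratins of simple epithelium and periderm, passed edgeR's test, both lower. With a sample left out, Krt8 passed in 6 and Krt18 in 3 of the 6 fits. The sample with the most Cxcl14, Dlx2OE 1, also had the highest epithelial sum. In that sample Krt5 (538 CPM, 42.7 to 91.7 in WT) and Krt14 (490 CPM, 129 to 254 in WT) were the largest parts. Krt15 (168 CPM), Trp63 (183 CPM), Esrp1 (114 CPM) and Grhl2 (51.3 CPM) in Dlx2OE sample 1 also lay above every WT sample. Epcam and Cdh1 lay within the WT range there and Krt8 and Krt18 below it, so this sum is not a fixed reference either. Dlx2OE samples 2 and 3 had lower epithelial sums than any WT sample, at 435 and 513 CPM of Cxcl14. Per 100 CPM of epithelial markers, Cxcl14 had 4.74, 1.99 and 5.32 CPM in WT against 53.7, 74.5 and 84.6 CPM in Dlx2OE. Per 100 CPM of mesenchyme markers it had 1.76, 1.66 and 2.775 CPM in WT against 51.4, 17.65 and 25.1 CPM in Dlx2OE. Which cells held the Cxcl14 transcripts was not tested.

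The 10 endothelial markers summed to 483, 326 and 398 CPM in WT against 229, 365.5 and 316 CPM in Dlx2OE. All 10 were lower in Dlx2OE, where 50.3% of all genes tested were higher. Of them, 1 passed edgeR's test, the sialomucin gene Emcn, which passed in 2 of the 6 fits with a sample left out. Within WT the order of the samples was the same for Cxcl12 and the endothelial sum, but in Dlx2OE it was not, since sample 2 had the larger sum and less Cxcl12 than sample 3. Dlx2OE sample 2 also had a larger endothelial sum than WT sample 2 and less Cxcl12. Per 100 CPM of endothelial markers, Cxcl12 had 87.55, 97.7 and 97.0 CPM in WT against 79.3, 71.75 and 90.8 CPM in Dlx2OE, which overlapped. Per 100 CPM of mesenchyme markers, Cxcl12 had 21.6, 20.1 and 20.35 CPM in WT against 9.29, 10.65 and 14.0 CPM in Dlx2OE, which did not. The part of the endothelium in the level of Cxcl12 was not tested. Cxcr4 is known from endothelium, leukocytes, neurons and muscle precursors. Macrophage and leukocyte markers summed to 94.4 to 103.8 CPM in WT against 58.1 to 64.8 CPM in Dlx2OE. Of these, 3 passed edgeR's test, the complement genes C1qa, C1qb and C1qc, all lower, where 6.45% of all genes tested passed. With a sample left out, C1qa and C1qb passed in 2 and C1qc in 3 of the 6 fits. Neuronal markers summed to 143 to 396 CPM in WT against 281 to 1520 CPM in Dlx2OE, highest in Dlx2OE sample 3, and muscle precursor markers to 144 to 257 and 79.05 to 174 CPM, with 0 of 10 passing in either list. All 10 neuronal markers were nevertheless higher in Dlx2OE, whereas 1 of the 10 muscle precursor markers was higher and the others lower. The surface epithelium sum, of which Krt5 and Krt14 were the largest parts there, was highest in Dlx2OE sample 1, where Cxcr4 was also highest. Within each genotype the order of the samples was the same for Cxcr4 and this sum. Over all 6 samples it was not, since WT sample 1 had a larger sum and less Cxcr4 than Dlx2OE samples 2 and 3. The part of any of these cell types in the level of Cxcr4 was not tested.

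**Figure D3:**
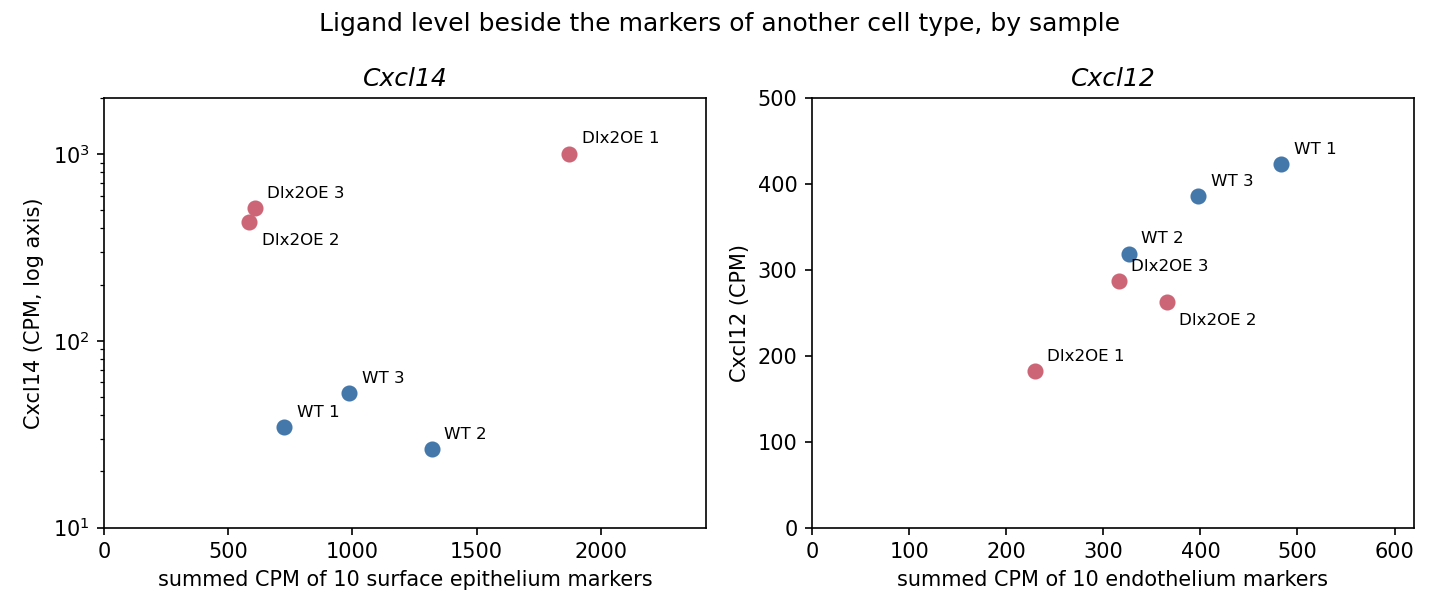
Level of Cxcl14 (log axis, CPM) against the summed CPM of 10 surface epithelium markers, and of Cxcl12 (linear axis, CPM) against that of 10 endothelium markers, with 1 point per sample. At epithelial sums of 584 and 606 CPM, Dlx2OE samples 2 and 3 lay above all WT samples for Cxcl14, whereas for Cxcl12 the 6 samples spread along the endothelial sum with Dlx2OE 1 lowest and WT 1 highest.

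The promoters of the ligands are shown because Cxcl14 and Cxcl12 lay at opposite ends of the set. Each is the 250 bases before the RefSeq start site, in GRCm38.p6, written 5′ to 3′ on the strand of the gene. The motifs searched, 4 in all, were read on both strands. They were TAATTA, a preferred sequence of Dlx homeodomains, its core TAAT, CTTTG, the core of LEF/TCF sites, and TATAAA, the TATA element. TAATTA contains TAAT, so these matches are not independent. Of 32851 mouse promoter windows of the same length, 4.84% held TAATTA, 54.9% TAAT, 48.6% CTTTG and 12.4% TATAAA. Capitals mark a match to TAAT, CTTTG or TATAAA.
Cxcl14 promoter, reverse strand, chr13:56296552-56296801: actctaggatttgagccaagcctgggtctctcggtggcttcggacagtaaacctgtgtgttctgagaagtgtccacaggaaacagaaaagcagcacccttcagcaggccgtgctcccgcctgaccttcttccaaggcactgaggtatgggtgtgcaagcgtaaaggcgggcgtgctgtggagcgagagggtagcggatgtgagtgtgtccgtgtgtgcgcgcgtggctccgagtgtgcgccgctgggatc
Cxcl12 promoter, forward strand, chr6:117168285-117168534: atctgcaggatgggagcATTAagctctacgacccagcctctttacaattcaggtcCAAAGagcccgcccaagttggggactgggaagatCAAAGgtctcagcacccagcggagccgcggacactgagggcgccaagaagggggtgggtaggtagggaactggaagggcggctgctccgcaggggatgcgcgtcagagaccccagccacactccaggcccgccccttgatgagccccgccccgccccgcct
The Cxcl14 window held 0 matches to any of the 4 motifs, 16 CpG dinucleotides and 59.6% G and C. The Cxcl12 window held 2 CTTTG matches, 195 and 161 bases before the start, and 1 TAAT match at 233 bases, with 14 CpG dinucleotides and 64.4% G and C. The mean over all windows was 9.86 CpG dinucleotides and 53.2% G and C. Cxcr4 had 1 TAAT and 2 overlapping TATAAA matches, and Ackr3 had 2 CTTTG matches and 1 TATAAA match. A match is a run of letters and not a measured binding site, and distal sequence was not analysed here.

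The other chemokine genes were mostly low. Of 36 other ligands, 11 had enough counts to be tested and 5 had no count in any sample. In edgeR's test 0 of the 11 were called higher and 1 lower, and 3 had an unadjusted p under 0.05, as 29.5% of all genes tested did. DESeq2 called 0 higher and 2 lower. Over the 11, the median difference in log2 units was -0.47, against 0.0028 over all genes tested. Of the 11, 1 was higher against 10 lower, where 50.3% of all genes tested were higher. Among the 10, Ccl27a (-0.012 log2 units) and Ppbp (-0.030) hardly differed. The one called was Cx3cl1, the membrane-tethered chemokine fractalkine, which fell from 8.88, 15.6 and 11.8 CPM to 7.02, 5.16 and 5.13 CPM. The difference was -1.07 log2 units (adjusted p = 0.0460 from edgeR with Benjamini-Hochberg adjustment, standard error 0.25). The call was lost with library size alone (adjusted p = 0.0572) and in 5 of the 6 fits with a sample left out. Of the most abundant other ligands, Ccl27a, a skin chemokine, had 12.9 to 20.4 CPM in WT against 15.1 to 19.5 CPM in Dlx2OE. Pf4, platelet factor 4, had 8.34 to 15.0 and 7.83 to 10.03 CPM, and Ccl25, a thymic and gut chemokine, 6.67 to 9.29 and 8.24 to 13.3 CPM. None of these 3 passed the test.

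Of 21 other receptors, 8 were tested, and 0 were called by edgeR or DESeq2. An unadjusted p under 0.05 was reached by 1 with edgeR, Ccr7, a lymphocyte homing receptor under 1 CPM in every sample, and by 0 with DESeq2. Over the 8, the median difference in log2 units was -0.53, with 2 higher and 6 lower, where 50.3% of all genes tested were higher. The most abundant was Cx3cr1, the receptor of Cx3cl1 on macrophages, with 6.15 to 8.89 CPM in WT against 7.93 to 10.9 CPM in Dlx2OE. Ccr2, a monocyte receptor, had 1.96 to 3.62 and 1.38 to 2.55 CPM, and Ackr1, an atypical receptor of vessels and erythroid cells, 1.22 to 2.19 and 2.09 to 3.51 CPM.

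**Figure D4:**
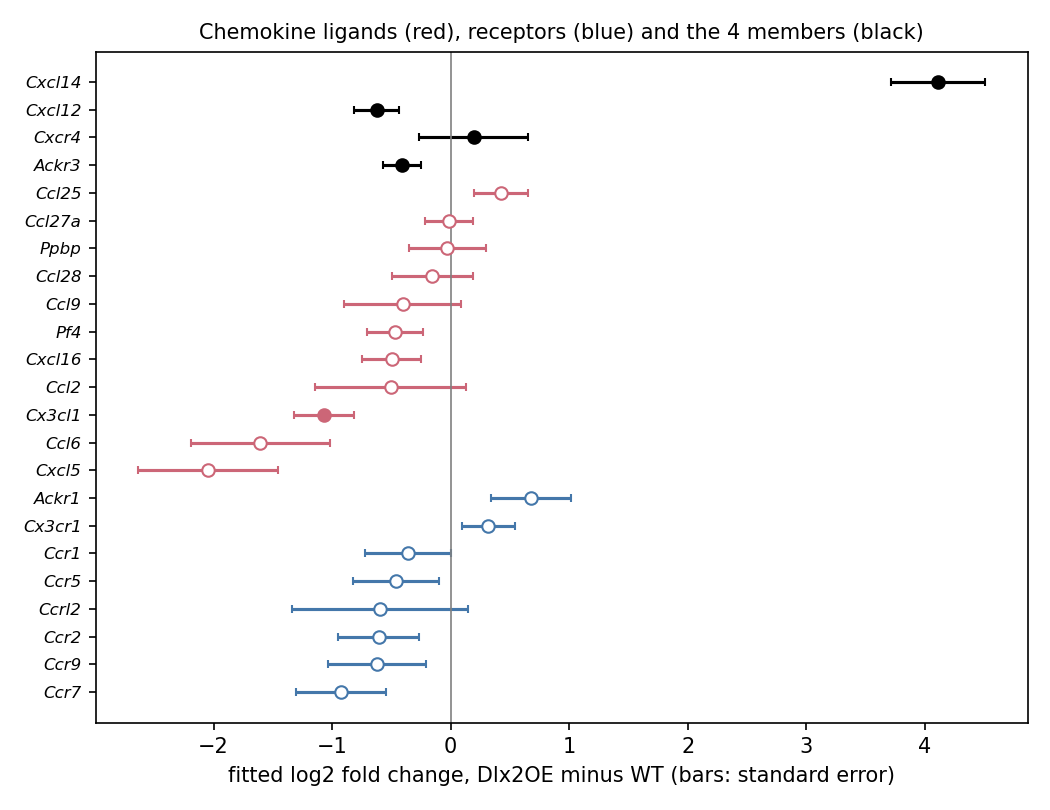
Fitted log2 fold change between genotypes with its standard error for the 4 members (black) and the 19 other chemokine ligands (red) and receptors (blue) that were tested. A filled red or blue point passed an adjusted p under 0.05, which only Cx3cl1 did. Of the 11 other ligands, 10 lay below 0, Ccl27a and Ppbp only just, where 50.3% of all genes tested lay above 0.

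Of 47 genes for coupling and internalisation, 45 were tested, 0 were called higher and 1 lower, and 10 had an unadjusted p under 0.05 with edgeR. DESeq2 called 1 higher and 1 lower. Counted at any fold change, 0 passed an adjusted p under 0.05 in the higher and 2 in the lower direction, where 6.45% of all genes passed in either. The median log2 fold change was -0.053. Rgs5, a regulator of G protein signalling typical of pericytes, fell from 16.0, 23.8 and 22.0 CPM to 7.73, 9.68 and 9.41 CPM, a difference of -1.21 log2 units (adjusted p = 0.0176 from edgeR, standard error 0.19). Gng5, a G protein gamma subunit, fell from 197, 189 and 107 CPM to 91.5, 85.6 and 74.8 CPM, a difference of -0.97 log2 units (adjusted p = 0.0427 from edgeR, standard error 0.22). Rgs5 passed in 4 and Gng5 in 2 of the 6 fits with a sample left out.

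The arrestins and kinases that act on both receptors did not pass the test. Arrb1 had 42.8 ± 4.70 CPM in WT against 66.2 ± 20.9 CPM in Dlx2OE, and Arrb2 24.9 ± 2.62 and 24.7 ± 1.97 CPM (SD, n = 3 each). Grk2, a receptor kinase, had 63.5 ± 5.399 and 66.1 ± 4.80 CPM, and Itch, the ubiquitin ligase that marks CXCR4 for degradation, 112 ± 17.0 and 112 ± 3.49 CPM (SD, n = 3 each). Grk2, Itch, both arrestins, Ccr7, Mif and Adm were named after their values were seen.

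Outside the cell, chemokines are held on heparan sulfate, trimmed by proteases and joined by other ligands of the same receptors. Of 34 such genes, 32 were tested, 0 were called higher and 1 lower, and 14 had an unadjusted p under 0.05, where the share over all genes tested was 29.5%. DESeq2 called 0 higher and 2 lower. At any fold change, 1 passed an adjusted p under 0.05 in the higher and 6 in the lower direction with edgeR, where 6.45% of all genes passed in either. The median log2 fold change was -0.20, with 10 higher and 22 lower, where 50.3% of all genes tested were higher. Gpc3, the most abundant glypican here and a carrier of heparan sulfate chains, fell from 1601, 1313 and 1048 CPM to 612, 821 and 660 CPM, a difference of -0.92 log2 units (adjusted p = 0.0373 from edgeR, standard error 0.20). Sulf1, a secreted sulfatase that trims heparan sulfate, fell from 686, 447 and 536 CPM to 287, 348 and 314 CPM, a difference of -0.81 log2 units (adjusted p = 0.0367 from edgeR, standard error 0.17). Ndst1, which adds sulfate to the growing chain, rose from 129, 133 and 163.5 CPM to 229.9, 202 and 211 CPM, a difference of 0.60 log2 units (adjusted p = 0.0336 from edgeR, standard error 0.12).

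A further 4 genes fell. Sdc2, a syndecan that carries heparan sulfate, went from 128 ± 14.3 to 87.8 ± 5.76 CPM (SD, n = 3 each; adjusted p = 0.0333 from edgeR). Ramp2, the partner of the adrenomedullin receptor Calcrl, went from 24.2 ± 0.824 to 14.7 ± 2.10 CPM (SD, n = 3 each; adjusted p = 0.0305 from edgeR), and 33.4% of its exon sequence overlaps another gene. Gpc5, a glypican, was low at 1.71 ± 0.333 and 0.587 ± 0.163 CPM (SD, n = 3 each; adjusted p = 0.0366 from edgeR), and was the gene of the list called lower. Hs6st2, which adds sulfate to heparan sulfate and was named after its values were seen, went from 105 ± 10.07 to 75.0 ± 7.12 CPM (SD, n = 3 each; adjusted p = 0.0450 from edgeR). With a sample left out, Gpc3 and Sulf1 passed in 1 of 6 fits and Ndst1, Sdc2, Ramp2, Gpc5 and Hs6st2 in 2 of 6. Alternative ligands did not pass. Mif, which also binds CXCR4, had 288 ± 65.8 and 221 ± 26.1 CPM, and Adm, adrenomedullin, which ACKR3 takes up, 1.24 ± 0.422 and 0.869 ± 0.502 CPM (SD, n = 3 each).

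The genes whose pattern over the 6 samples was nearest to each member were found among 12504 protein-coding genes with a mean log2 CPM of at least 1. Each gene was centred on its WT mean, and the distance was the root mean square difference in log2 CPM over the 6 samples, which share the genotype contrast and the libraries. Cxcl14 was nearest to Wnt9b (0.285), Wnt3 (0.429) and Glis1 (0.511). Wnt9b and Wnt3 encode secreted Wnt ligands and Glis1 a zinc finger factor. No gene lay within 0.2 of Cxcl14. Cxcl12 was nearest to Cldn5 (0.0539), the claudin of endothelial tight junctions, Gas2 (0.0754), a cytoskeletal linker, and Pea15a (0.0759), which binds ERK. There were 90 genes within 0.2 of Cxcl12. Cxcr4 was nearest to Alpl (0.0476), tissue-nonspecific alkaline phosphatase, Slc26a7 (0.156), an anion transporter, and Omd (0.193), a bone proteoglycan, with 4 genes within 0.2. Ackr3 was nearest to Grtp1 (0.0460), Rhod (0.0648) and Lrrc1 (0.0683), but 1049 genes lay within 0.2 of it, so these 3 hardly stand out.

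**Figure D5:**
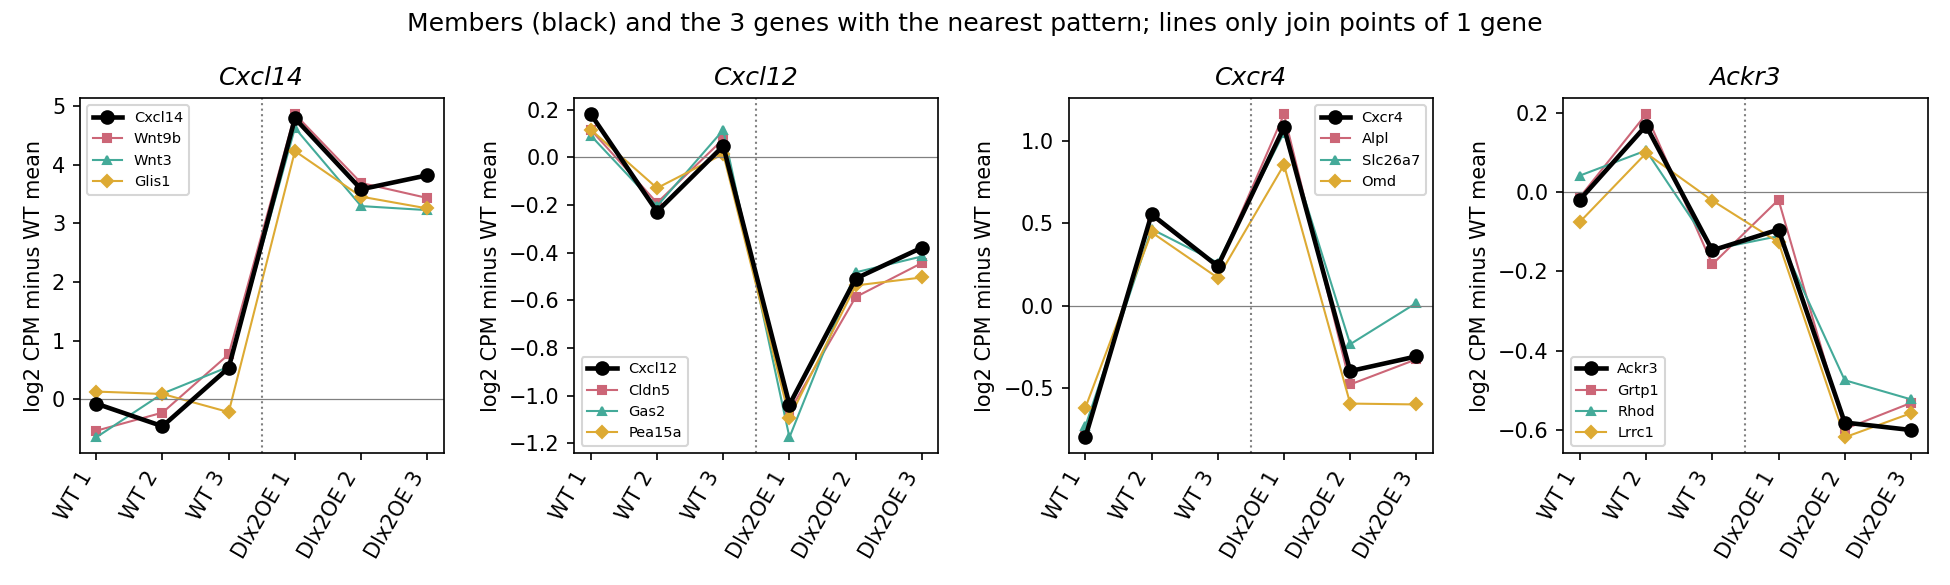
Log2 CPM minus the WT mean in each of the 6 samples for each member (black) and the 3 genes at the smallest root mean square difference from it, where lines only join the points of 1 gene. Cxcr4 and Alpl shared a low WT sample 1 and a high Dlx2OE sample 1, and Cxcl12 and Cldn5 were lowest in Dlx2OE sample 1.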

How the data were processed

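Per the labels and the paper's methods, poly-A RNA was sequenced as 150 bp pairs, and the authors mapped it to mm10 with STAR 2.7.3a, counted it per gene with HTSeq 0.12.4 in union mode and deposited raw counts, not normalized. The annotation release and strand setting are not given in the sources used here. Lines naming no gene (16.8% to 25.3% of each file) were left out. Symbols, lengths and positions came from GENCODE M21.

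The test of these counts was that of edgeR 4.0.16, run in R 4.3.3 (filterByExpr with a minimum count of 10, TMM, quasi-likelihood F test on genotype, Benjamini-Hochberg over all genes kept). Log2 CPM used a prior count of 2. The paper's tool, DESeq2 1.42.0, was an alternative. Members and gene lists were chosen with earlier results of these data known. Named genes were the members, Dlx2, list genes with an adjusted p under 0.05 (at most 6 a list), the 3 most abundant other ligands and receptors, and the 3 nearest patterns. The test was checked on simulated counts. Figures used matplotlib 3.10.9.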

Additional observations from a re-analysis of the deposited data

How the results depend on the processing

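The direction of Cxcl14, Cxcl12 and Ackr3 was the same in all 12 alternative fits, and that of Cxcr4 turned without WT replicate 1 or Dlx2OE replicate 1. The counts of all genes called, 262 higher and 284 lower, were 448 and 444 with DESeq2, 506 and 497 with no filter on low counts, and 524 and 606 at any fold change. They were 72 and 81 without WT replicate 1, 39 and 35 without WT replicate 2, 227 and 394 without WT replicate 3, 642 and 531 without Dlx2OE replicate 1, 129 and 58 without Dlx2OE replicate 2, and 139 and 115 without Dlx2OE replicate 3. Other ligands called lower were 2 with DESeq2 and with no filter, 0 with library size alone and 0 to 2 with a sample left out. Coupling genes called higher were 1 with DESeq2 and with no filter and 0 to 1 with a sample left out, and those called lower 2 at any fold change and 0 to 2 with a sample left out. Extracellular genes called lower were 2 with DESeq2, 6 at any fold change and 0 to 3 with a sample left out, and 1 was higher at any fold change. Ackr3 in WT had 68.9 TPM by longest transcript and 90.0 TPM over protein-coding genes, and Cxcl12 in Dlx2OE 118 TPM over protein-coding genes. The 3 genes nearest to each member were shared with a prior count of 0.5. Hs6st2 missed the threshold with library size alone (adjusted p = 0.0514). The causes were not tested. The labels number the samples 1 to 3 in both genotypes. Deviations of same-numbered samples from their group means had correlations of -0.072, -0.21 and 0.073, which show no pairing by number. Deviations of 3 samples from their own mean are tied to each other, so these values cannot settle whether same-numbered samples share a litter or preparation. With a replicate block, 202 genes were called higher and 196 lower, with 0 other ligands and 0 extracellular genes called lower, and Cx3cl1, Sulf1 and Gpc5 had adjusted p-values of 0.0860, 0.0630 and 0.0600 from edgeR. Among the markers, Twist1, Emcn, C1qa and C1qb had adjusted p-values of 0.0620, 0.0812, 0.0521 and 0.0638 from edgeR with this block. Depth limits what can be said of genes near 0.111 CPM, the highest level that a count of 0 allows in any sample.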

Other observations

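Several chemokine-related genes passed in other fits only, and were named after their values were seen. Cxcl5, a neutrophil chemokine, had 2.36, 7.70 and 5.61 CPM in WT against 2.06, 0.446 and 1.29 CPM in Dlx2OE, and was called lower by DESeq2 (log2 fold change -2.05, adjusted p = 0.00137) but not by edgeR in the main fit (adjusted p = 0.0731). With no filter on low counts (adjusted p = 0.0117) or without Dlx2OE replicate 1 (adjusted p = 0.0350), edgeR called it lower. Rgs4, a regulator of G protein signalling of neurons and crest, was called higher by DESeq2 (log2 fold change 2.79, adjusted p = 0.0409). It was also called higher by edgeR with no filter on low counts (2.77, adjusted p = 0.00681) and without Dlx2OE replicate 1 (3.32, adjusted p = 0.00227). Mmp9, a protease of the extracellular list, was called lower by DESeq2 (log2 fold change -1.08, adjusted p = 0.0441). Without Dlx2OE replicate 1, edgeR also called Dpp4, the protease that inactivates CXCL12 (log2 fold change -1.34, adjusted p = 0.0403), and Cd74, the invariant chain that binds Mif (log2 fold change -2.04, adjusted p = 0.0181), both lower. With all 6 samples Dpp4 had 2.74 ± 0.663 CPM in WT against 1.48 ± 0.697 CPM in Dlx2OE (SD, n = 3 each).

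Erythroid markers, mostly globins, summed to 4442, 4030 and 3326 CPM in WT against 2520, 2597 and 2006 CPM in Dlx2OE, without overlap, and Hba-a1, Hba-a2 and Alas2 passed edgeR's test, all lower (log2 fold changes of -0.85, -2.13 and -0.86, adjusted p = 0.0360, 0.00552 and 0.0207). Glia and melanoblast markers summed to 161, 162 and 178 CPM and 134.7, 172 and 236 CPM, with overlap. Of these, Dct and Pmel, pigment cell genes under 1 CPM on average in WT, rose (log2 fold changes of 2.18 and 2.04, adjusted p = 0.0104 and 0.0381 from edgeR). Dct passed in 5 and Pmel in 2 of the 6 fits with a sample left out. Pmel missed the threshold with a replicate block (adjusted p = 0.0710 from edgeR). In the same list Mitf and Kit did not pass (log2 fold changes of 0.46 and 0.08). Tyrp1, also a pigment cell gene, had 0, 4 and 8 counts in WT and 1 in each Dlx2OE sample, too few to be tested.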
